A study of Mus musculus with 24 samples.

Results

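Plasma cells are the antibody-secreting end stage of the B lymphocyte lineage. The transcription factors Irf4 and Prdm1 (Blimp-1) drive a B cell towards that stage and Prdm1 shuts down the B cell programme, while Xbp1, made active by a splice of its mRNA in the unfolded protein response, enlarges the endoplasmic reticulum (ER) and its secretory machinery. Mzb1 is an ER protein that assists the folding and assembly of antibody chains, Derl3 belongs to the complex that exports misfolded proteins from the ER for degradation, Sdc1 (CD138) is the surface proteoglycan by which plasma cells are usually recognised, and Tnfrsf17 (BCMA) is a surface receptor for survival ligands. None of these genes is restricted to plasma cells: Irf4 and Mzb1 are also made in B cells, Prdm1 in activated T and NK cells, Xbp1 in most secretory and myeloid cells, and Sdc1 in epithelia and liver.

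These 7 genes were taken by name from the 29742 gene names on the array, and the question was whether they fall after irradiation as B cell genes do. Each was read by 1 probe. Of these, 6 passed the filters on dim and flat probes and were among the 17472 genes tested, and Tnfrsf17 did not pass. Blood RNA came from 24 male C57BL/6J mice in 4 groups of 6, namely young (2 months) unirradiated, young irradiated, old (21 months) unirradiated and old irradiated mice. Irradiation was a single whole-body exposure to 4 Gy of x-rays, the other mice were sham-irradiated, and blood was taken 24 h later into an RNA-stabilising reagent, with globin transcripts depleted before labelling. Each mouse was measured on 1 single-colour (Cy3) Agilent whole mouse genome array. The samples were whole blood of 1 sex and 1 strain, without sorting of cells, so that fewer cells of a type and less RNA per cell cannot be told apart. All young mice lay on other slides and another scan day than all old mice, so that age and scan day cannot be told apart either.

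The probes of 6 members are identified here by their first 30 of 60 bases, since each result rests on a single probe. Positions are those of the array's own annotation in mouse build mm9, and the sequences run 5′ to 3′ as the array design gives them:
Xbp1, chromosome 11, 5425816 to 5425875: ttcttgctagtgtagcttctagaaggtgct
Prdm1, chromosome 10, 44157089 to 44157148, minus strand: gttggttggtttgtttgtttgttttttcct
Irf4, chromosome 13, 30858532 to 30858591: ttcttattagacactgctacaggcttcaca
Sdc1, chromosome 12, 8799383 to 8799442: atctgtatggtgccccatttttggcggccc
Derl3, chromosome 10, 75358503 to 75358562: agccgtgtacagtggaggtaggtctgggac
Tnfrsf17, chromosome 16, 11320045 to 11320104: tagataatgagcttcctaactggtgtgaag
The probe of Mzb1 was spotted 10 times on each array and its spots were averaged. The Xbp1 probe is annotated to both RefSeq transcripts of the gene, so that spliced and unspliced Xbp1 mRNA were measured as 1 value. Which exon or UTR a probe lies in was not determined, because the gene models used here are in another build (GRCm38.p6).

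Levels are given as log2 signal minus the median of the array, hereafter the log2 level, and a gene passed the test at p under 0.005 with a Benjamini-Hochberg adjusted p under 0.05 in limma over the 17472 genes. Some arrays stood apart in markers of other cells. The mean log2 level of 15 hepatocyte markers was 8.89 to 10.1 in young irradiated mice 2, 4 and 5 and 8.52 to 9.20 in old irradiated mice 2, 3 and 5, against at most 3.09 in the other irradiated mice and 6.07 in young unirradiated mouse 5. The first 6 are called the hepatocyte-high arrays below. All 15 were well above background in those 6 arrays and also in young unirradiated mice 3, 4 and 5 (means 3.68, 2.41 and 6.07), against 4 to 6 of 15 in old unirradiated mice. Macrophage marker means were also higher there, at 6.36 to 6.60 against 4.32 to 5.30 in the other young irradiated mice and 4.72 to 6.15 against −0.34 to 1.82 in the other old irradiated mice. Epithelial marker means separated the same arrays (1.51 to 1.71 against −0.56 to 0.27 in young and 0.98 to 1.51 against −1.07 to −0.63 in old irradiated mice), and T cell marker means were lower there (3.72 to 4.38 against 4.56 to 5.35, and 5.03 to 5.44 against 5.67 to 6.05). Old irradiated mice 4 and 6 had monocyte marker means of 2.64 and 2.83, against 4.56 to 6.51 in the other 22 arrays, and the lowest median signals. The part of these markers in the results was not tested.

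**Figure D1:**
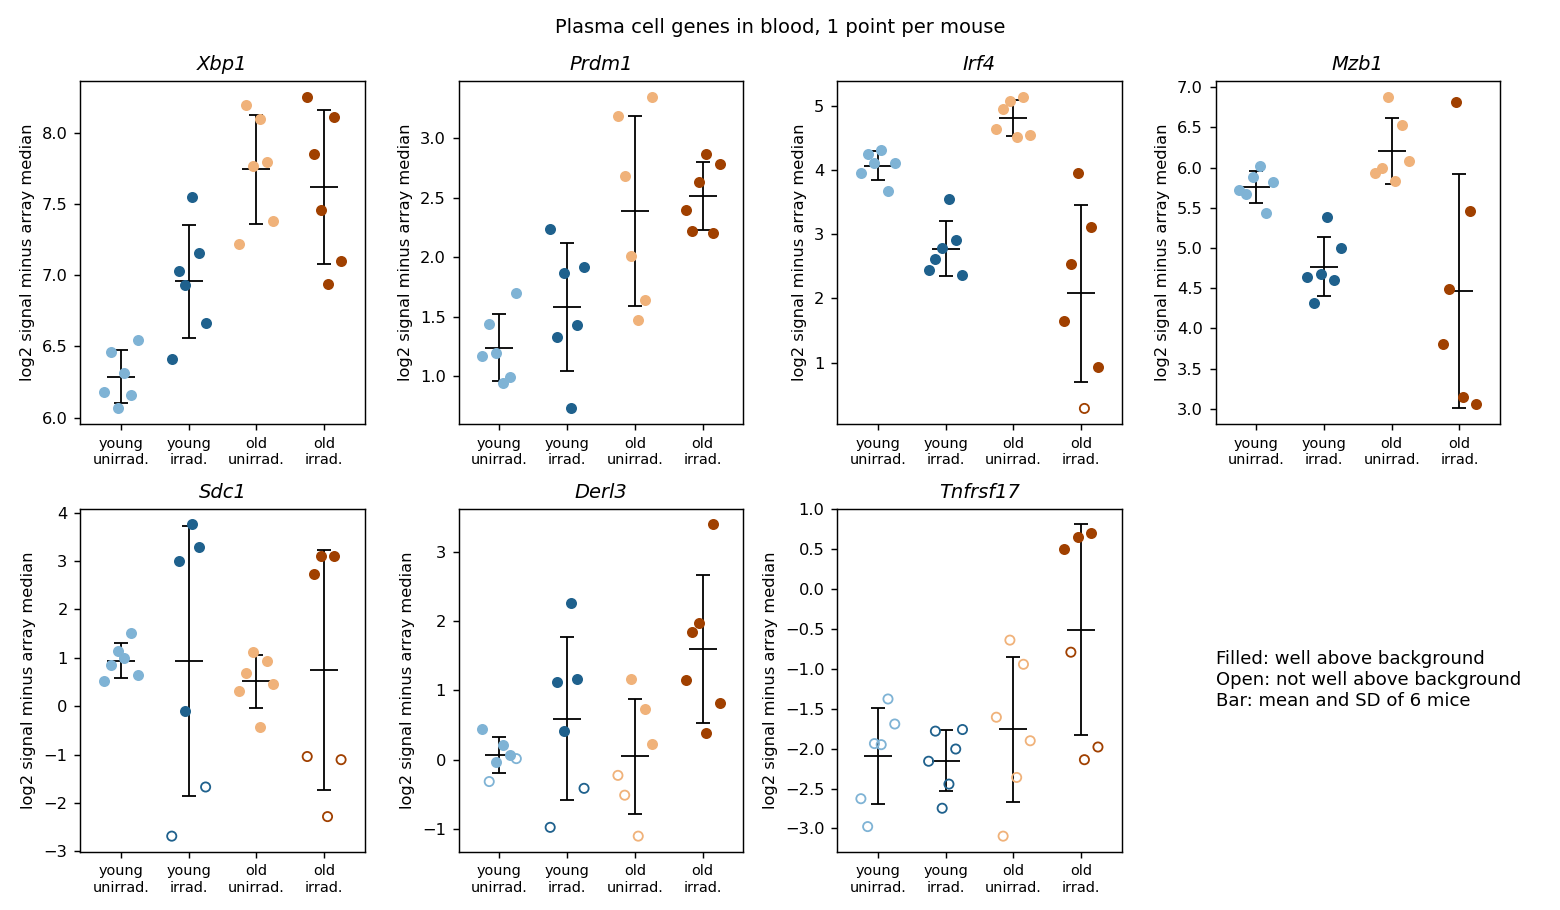
Log2 level (log2 signal minus array median, vertical axes) of each of the 7 genes in 4 groups of 6 mice; points are mice, open points were not well above background, and bars show mean and SD. Irf4 lies lower in every irradiated mouse than in every unirradiated mouse of the same age, Xbp1 does not fall, Sdc1 splits the irradiated mice into high and low levels, and Tnfrsf17 is filled in only 3 old irradiated mice.

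Irf4 and Mzb1 fell after irradiation, the former at both ages. The log2 level of Irf4 was 3.68, 4.11 and 4.31 (lowest, median and highest) in young unirradiated mice and 2.37, 2.70 and 3.55 in young irradiated mice. All 6 irradiated mice lay below all 6 unirradiated mice. The fall was 2.45-fold (log2 difference −1.29, SE 0.201, n = 6 and 6, limma adjusted p = 0.000246; exact permutation p = 0.00216, two-sided, the smallest that 924 splits can give). In old mice Irf4 was 4.52, 4.80 and 5.15 in unirradiated and 0.29, 2.09 and 3.95 in irradiated mice, again without overlap, a 6.67-fold fall (log2 difference −2.74, SE 0.527, limma adjusted p = 0.00243). It was −3.86 without old irradiated mice 2, 3 and 5 (adjusted p = 4.74e-05) and −2.00 without mice 4 and 6 (adjusted p = 0.00148), and passed in both. Mice 2, 3 and 5 held the highest Irf4 levels of their group, so that their omission deepens the fall by selection. Mice 4 and 6 held the lowest, so that their omission makes the fall smaller. Old irradiated mouse 4, the lowest, was not well above background. With another background correction (normexp) the log2 differences of Irf4 were −0.68 in young and −1.17 in old mice and neither passed (adjusted p = 0.387 and 0.29).

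Mzb1 followed the same course in young mice. Its log2 level was 5.43, 5.77 and 6.02 in unirradiated and 4.32, 4.66 and 5.39 in irradiated young mice, without overlap, a 1.99-fold fall (log2 difference −0.99, SE 0.182, limma adjusted p = 0.00077). In old mice the levels were 5.83, 6.04 and 6.88 without and 3.07, 4.15 and 6.82 with irradiation. The irradiated mice were spread over a wide range there and the highest, mouse 3, overlapped the unirradiated mice, so that the log2 difference of −1.74 (SE 0.564, limma adjusted p = 0.0287) did not pass the threshold on p. Without old irradiated mice 2, 3 and 5, which had the high hepatocyte markers, Mzb1 had a log2 difference of −2.87 (SE 0.326, adjusted p = 0.000267) and passed. Without mice 4 and 6 its log2 difference was −1.06 (adjusted p = 0.0917), and without mouse 3 alone it passed (−2.21, adjusted p = 0.00251), so that in old mice its call depended on which arrays were kept. Mice 2, 3 and 5 held the highest Mzb1 levels of the old irradiated mice (4.49 to 6.82, against 3.07 to 3.80 in the others). Mice 4 and 6 held the lowest. The passes without mice 2, 3 and 5 and without mouse 3 therefore rest on selection. In old mice Mzb1 also passed with the replicate number as a block (adjusted p = 0.0172). In young mice it did not pass with normexp (−0.43) or in 1 fit of all 24 arrays (adjusted p = 0.0893).

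Xbp1 rose in young mice. Its log2 level was 6.07, 6.25 and 6.54 in young unirradiated and 6.41, 6.98 and 7.55 in young irradiated mice, with 5 of 6 irradiated mice above every unirradiated mouse. The rise was 1.59-fold (log2 difference 0.67, SE 0.186, limma adjusted p = 0.00996). It was larger in the 3 young irradiated mice with high hepatocyte markers (7.03 to 7.55) than in the other 3 (6.41 to 6.93), and without the former the log2 difference of 0.38 (adjusted p = 0.0903) did not pass. The call was likewise lost without any 1 of 8 mice (young unirradiated 1, 3, 4 and 5 and young irradiated 2, 3, 4 and 5), with log2 differences of 0.55 to 0.68, with the authors' deposited values (0.40) and with the replicate number as a block (adjusted p = 0.0274). In old mice Xbp1 was 7.22, 7.78 and 8.20 without and 6.94, 7.65 and 8.25 with irradiation, a log2 difference of −0.12 (SE 0.297, adjusted p = 0.763) whose sign turned under some scalings. It was −0.31 without mice 2, 3 and 5 and 0.18 without mice 4 and 6, and passed in neither.

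Prdm1 did not pass the test in either age. Log2 levels were 0.94, 1.18 and 1.70 in young unirradiated, 0.73, 1.65 and 2.23 in young irradiated, 1.47, 2.35 and 3.35 in old unirradiated and 2.20, 2.51 and 2.87 in old irradiated mice. The log2 difference with irradiation was 0.34 (SE 0.240, limma adjusted p = 0.262) in young and 0.13 (SE 0.350) in old mice, where it was 0.29 without mice 2, 3 and 5 and −0.03 without mice 4 and 6. The young irradiated mice with high hepatocyte markers were the 3 lowest in Prdm1 (0.73 to 1.43), and without them the other 3 (1.87 to 2.23) lay above all unirradiated young mice, a log2 difference of 0.77 (SE 0.194, limma adjusted p = 0.00887) that passed. Because the lowest levels of 1 group were left out, this pass rests on selection and cannot show a rise.

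Sdc1 was spread far more widely in irradiated than in unirradiated mice. In unirradiated mice its log2 level was 0.52, 0.92 and 1.51 (young) and −0.43, 0.57 and 1.11 (old), and in irradiated mice it was −2.69, 1.46 and 3.76 (young) and −2.28, 0.84 and 3.11 (old). The SD was 0.357 and 2.78 in young and 0.546 and 2.48 in old mice, unirradiated and irradiated respectively. Neither the log2 difference of −0.01 (SE 1.01) in young nor that of 0.24 (SE 0.913) in old mice passed. The 6 irradiated mice with high hepatocyte markers had Sdc1 levels of 2.73 to 3.76, above every unirradiated mouse, and the other 6 irradiated mice had −2.69 to −0.10. With the 6 arrays left out, Sdc1 was lower in young mice (log2 difference −2.43, SE 0.459, limma adjusted p = 0.00191) and in old mice (−1.99, SE 0.406, adjusted p = 0.0027), and 5 of the 6 remaining irradiated mice were not well above background. The arrays left out held the 6 highest Sdc1 levels of the irradiated mice. Their omission lowers Sdc1 by selection, so that these p-values cannot show a fall. Without old irradiated mice 4 and 6 the difference in old mice was 1.46 and did not pass (adjusted p = 0.116).

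**Figure D2:**
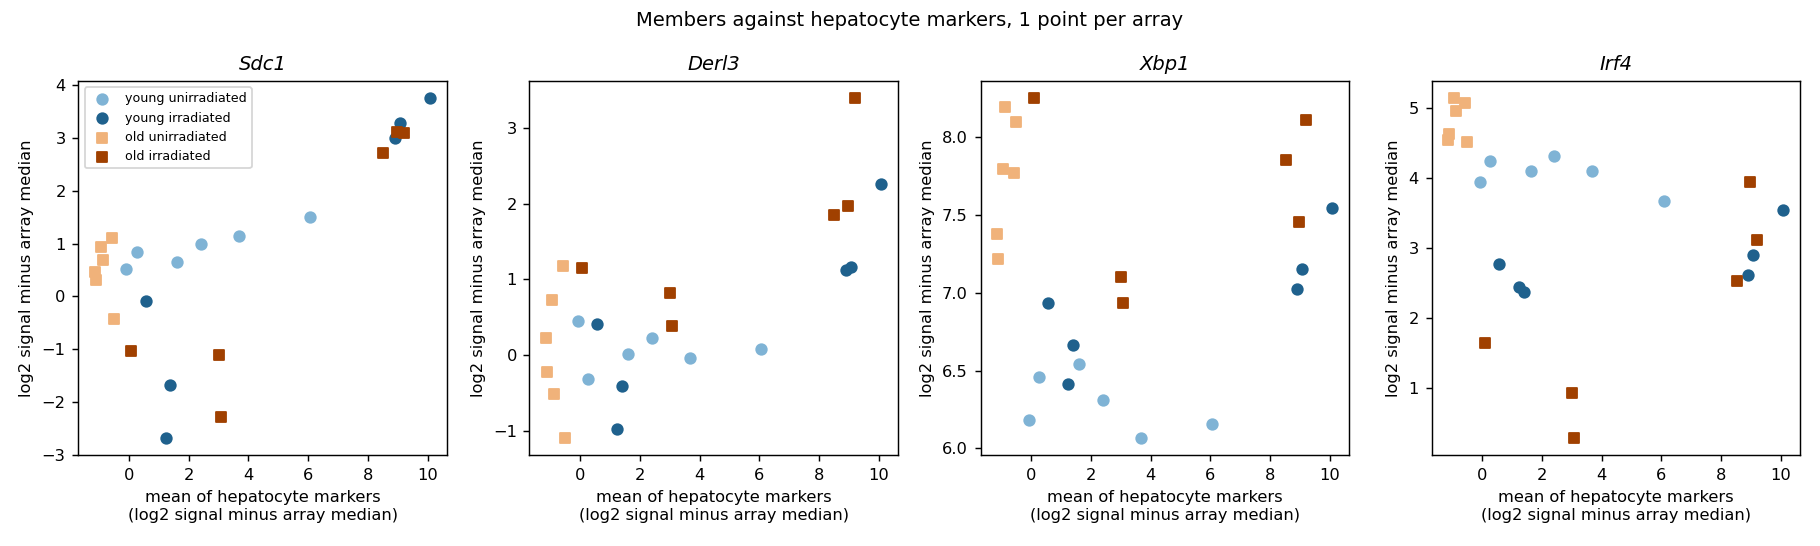
Log2 levels of Sdc1, Derl3, Xbp1 and Irf4 (vertical axes, log2 signal minus array median) against the mean log2 level of 15 hepatocyte markers (horizontal axes) in 24 arrays, 1 point per array, coloured by group. Sdc1 lies at 2.73 to 3.76 in the 6 irradiated arrays with a hepatocyte mean above 8, and at or below −0.10 in the other irradiated arrays.

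Derl3 lay near background and was variable. It was well above background in 17 of 24 arrays, with log2 levels of −0.31, 0.05 and 0.45 in young unirradiated, −0.97, 0.77 and 2.25 in young irradiated, −1.10, 0.00 and 1.17 in old unirradiated and 0.38, 1.5 and 3.40 in old irradiated mice. The log2 difference with irradiation was 0.53 (SE 0.441, limma adjusted p = 0.353) in young and 1.55 (SE 0.511, limma adjusted p = 0.0313) in old mice, the latter short of the threshold on p. In old mice it passed with the replicate number as a block (adjusted p = 0.015), without unirradiated mouse 3 (1.77), without irradiated mouse 4 (1.79) and without irradiated mice 4 and 6 (2.05, adjusted p = 0.00585). Unirradiated mouse 3 was the highest of its group in Derl3, and irradiated mice 4 and 6 were the lowest of theirs. The passes with these mice left out rest on selection and cannot show a rise. Derl3 was 1.13 to 2.25 in the young irradiated mice with high hepatocyte markers and −0.97 to 0.41 in the other 3. Without the hepatocyte-high arrays its difference in young mice turned to −0.39 (adjusted p = 0.275), and in old mice it was 0.74 (adjusted p = 0.198). Those arrays were the highest of the irradiated mice in Derl3 at each age, so that both values are lowered by selection.

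The promoter of Derl3 is shown because it alone among the 6 member promoters in the RefSeq table (GRCm38.p6, 250 bases before to 50 after the start; Mzb1 has no entry) held the ER stress response element, CCAAT followed after any 9 bases by CCACG, to which ATF6 and Xbp1 protein bind in concert with NF-Y. The 250 bases before its start, chr10:75893148-75893397 on the plus strand, read as follows, with every CCACG on either strand and the CCAAT of the whole element in capitals:
Derl3: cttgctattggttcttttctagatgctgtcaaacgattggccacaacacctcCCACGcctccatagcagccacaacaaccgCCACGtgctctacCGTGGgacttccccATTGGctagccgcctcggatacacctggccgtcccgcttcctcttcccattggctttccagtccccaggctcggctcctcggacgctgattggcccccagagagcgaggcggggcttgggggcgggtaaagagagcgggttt
The whole element lay on the minus strand, from base −156 to base −138 relative to the start (75893242 to 75893260), and was found in 39 of 32851 promoters of the table (0.119%). Both strands were searched. Its CCACG end alone was common, in 32.8% of promoters and in those of Prdm1, Irf4, Sdc1 and Derl3, the last with 3. ACGTGG, which overlapped a CCACG in Derl3, was in 8.31% of promoters, and GAAA followed after any 2 bases by GAAA, a form of the motif bound by interferon regulatory factors, was in 3.44% and, among the members, in that of Tnfrsf17. A match of letters is a description, and binding was not measured.

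Tnfrsf17 was close to background. It was well above background in 0 of 6 young unirradiated, 0 of 6 young irradiated, 0 of 6 old unirradiated and 3 of 6 old irradiated mice (mice 1, 3 and 5). Log2 levels were −2.98, −1.94 and −1.38, then −2.75, −2.08 and −1.76, then −3.10, −1.75 and −0.64, and in old irradiated mice −2.14, −0.15 and 0.70. With old unirradiated mice set to the lowest signal that counts as well above background, the mean of old irradiated mice was 1.19-fold higher, from normalised log2 levels. The latter mean includes the mice that were not well above background, so that 1.19 is not a lower bound of the difference. In a fit without filters over 29742 genes, in which 15.6% of genes passed in old mice, the log2 difference was 1.25 (SE 0.588, limma adjusted p = 0.168) and did not pass. The 3 measured mice included 1 with a low hepatocyte mean (mouse 1, 0.08) and 2 with high means (8.95 and 9.20).

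One slide of each age held both groups, with 2 mice of each, and the directions within it were those of the whole for every member that passed. Within it Irf4 had a log2 difference of −1.36 in young and −2.76 in old mice, Mzb1 −1.15 and −2.16, and Xbp1 0.37 in young mice. The other slides held 1 group each.

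Of the 6 members tested in young mice, 3 passed, against 35.8% of all genes tested. One was higher (background 14.4%) and 2 were lower (background 21.4%), and 2 of 6 were lower without overlap of the groups against 15.4% of all genes. In old mice 1 of 6 passed, the fall of Irf4, against 25% of all genes in either direction and 17.4% lower, and that 1 was also the only member lower without overlap (background 16.8%). With the 6 arrays high in hepatocyte markers left out, 1 member was higher (background 14.4%) and 3 were lower (background 18.9%) in young mice, and 3 were lower in old mice (background 24.5%). The lower ones were Irf4, Mzb1 and Sdc1 at both ages, and the higher one was Prdm1. The irradiated arrays left out were the highest in Sdc1 and, in young mice, the lowest in Prdm1. In old mice they were also the highest in Irf4 and Mzb1. The calls of Sdc1 and Prdm1, and that of Mzb1 in old mice, therefore rest on selection. Irf4 at both ages and Mzb1 in young mice passed with all arrays too. The median of all genes was −0.20 in young and −0.25 in old mice and that of the 6 members was 0.17 and 0.00 respectively, with 3 of 6 higher and 3 of 6 lower at each age.

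Most B cell genes fell further. Of 19 B cell reference genes, 17 fell in young and 16 in old mice and 0 rose, with median log2 differences of −2.54 and −3.88. In old mice the median was −5.07 without irradiated mice 2, 3 and 5 and −3.19 without mice 4 and 6. Examples were Cd79b, a signalling subunit of the B cell receptor (−2.68 in young, −4.13 in old mice), Ms4a1, the B cell surface protein CD20 (−2.13, −3.88), and Fcmr, the receptor for IgM (−3.14, −4.38). Cd24a, the gene of the list with the highest signal, moved less in old mice. Its mean log2 level was 11.08 without and 9.63 with irradiation in young mice. In old mice it was 10.94 and 10.64, with irradiated mice spread from 8.75 to 13.74. In young mice 17 of the 19 fell more than Irf4 and 17 more than Mzb1, and in old mice 15 and 16. All 19 had a lower log2 difference than Xbp1, Prdm1, Sdc1 and Derl3 in young mice (Btk, at −0.01, by a margin far under the SE of Sdc1), and all 19 than Prdm1, Sdc1 and Derl3 in old mice, where only Ralgps2 (−0.12) was not lower than Xbp1.

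The comparison was repeated after subtracting from each array the mean of the 19 B cell genes, on which the scale of an array has no effect. Relative to B cell genes, Irf4 was higher after irradiation by 1.25 (SE 0.219, limma adjusted p = 8.02e-05) in young mice and by 0.70 (SE 0.313, adjusted p = 0.0421) in old mice, the latter not passing. Mzb1 was higher by 1.55 (SE 0.151) and 1.70 (SE 0.327), Xbp1 by 3.21 (SE 0.235) and 3.32 (SE 0.420), Prdm1 by 2.88 and 3.57, Derl3 by 3.07 and 4.99 and Sdc1 by 2.53 and 3.68, all of which passed except Sdc1 in young mice (SE 1.07). At each age 5 of 6 members passed as higher, as did 95.4% of all genes in young and 95.3% in old mice. The count of members is thus near the background and is no result about them.

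**Figure D3:**
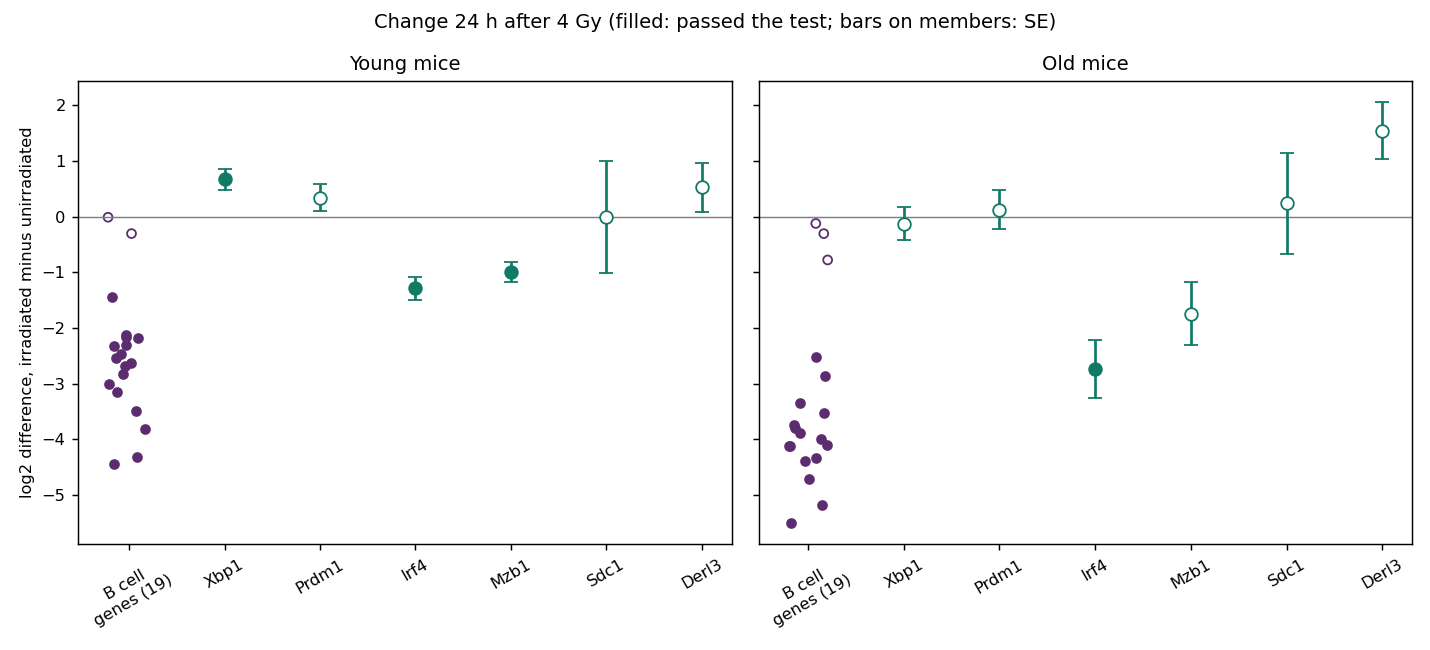
Log2 difference, irradiated minus unirradiated (vertical axis), of 19 B cell reference genes (1 point per gene) and of the 6 tested members with SE, in young (left) and old mice (right); filled symbols passed the test. The B cell genes have medians of −2.54 and −3.88, Irf4 and Mzb1 lie between them and 0, and the other members lie near or above 0.

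Without irradiation, 3 members were higher in old than in young mice. Xbp1 was 2.75-fold higher (log2 difference 1.46, SE 0.178, limma adjusted p = 2.12e-05) and Irf4 1.68-fold higher (0.75, SE 0.159, adjusted p = 0.000858), both without overlap, and Prdm1 was 2.22-fold higher with overlap (1.15, SE 0.313, adjusted p = 0.00436). These stood against 63.8% of all genes that passed, 48.2% higher, and 37.4% that were higher without overlap, and the median of all genes was itself 0.63 higher in old mice. Relative to the 75th percentile of each array, where that median was −0.02, the log2 differences were 0.94 for Xbp1 (adjusted p = 0.0015), 0.63 for Prdm1 and 0.23 for Irf4, and of these only Xbp1 passed. Prdm1 also lost its pass without any 1 of 7 mice (young unirradiated 1, 3, 4 and 5 and old unirradiated 1, 2 and 6; log2 differences 0.96 to 1.14). That scale also turned the split of calls over all genes, with 75.7% of calls higher on the scale used here and 27.9% on the other. Mzb1 (0.45), Sdc1 (−0.43) and Derl3 (−0.02) did not pass, although on that other scale Sdc1 was lower by 0.95 and passed (adjusted p = 0.007).

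Between irradiated old and irradiated young mice, 0 of 6 members passed in limma, against 2.00% of all genes, and 2 had an unadjusted p under 0.05. These were Prdm1 (log2 difference 0.93, SE 0.287) and Xbp1 (0.66, SE 0.304). Without old irradiated mice 2, 3 and 5, Irf4 (−1.82, adjusted p = 0.0245) and Mzb1 (−1.43, adjusted p = 0.032) were lower and passed, against 3.08% of all genes lower. Without mice 4 and 6 Xbp1 was higher and passed (0.96, adjusted p = 0.0116), against 20.3% of all genes higher. Mice 2, 3 and 5 were the highest of their group in Irf4 and Mzb1, and mice 4 and 6 the lowest in Xbp1. These passes rest on selection and cannot show a difference with age. The age by radiation interaction over 24 arrays passed for 0 of 6 members in limma and by the random variance test of the study's methods, and for 0 of all genes (background 0). Irf4 (−1.45, unadjusted p = 0.0206, adjusted p = 0.158) and Xbp1 (−0.79, unadjusted p = 0.0299, adjusted p = 0.176) had an unadjusted p under 0.05. A larger fall of Irf4 in old than in young mice was therefore not shown over all arrays. Without the 6 arrays high in hepatocyte markers the interaction passed for Irf4 (−2.33, SE 0.371, limma adjusted p = 0.00241) and Mzb1 (−1.88, SE 0.355, adjusted p = 0.00438), 2 of 6 lower against 12% of all genes. Without old irradiated mouse 3 alone it passed for Irf4 (−1.82, adjusted p = 0.0445). Without old irradiated mice 4 and 6, which had low monocyte markers, it was −0.71 for Irf4 (adjusted p = 0.421) and −0.07 for Mzb1. The hepatocyte-high arrays of old mice held the highest Irf4 and Mzb1 levels of their group (at least 2.54 and 4.49). The other old irradiated mice had at most 1.64 and 3.80. Mouse 3 was the highest in both genes, and mice 4 and 6 were the lowest. Each omission thus moves the fall in old mice by selection and cannot decide whether the fall differed with age.

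The members differed in which genes they followed from mouse to mouse. Likeness was taken as Pearson's r over the 24 arrays after subtracting the group means, among 10245 or 10246 other genes well above background on every array, and is a description because arrays share their depth and cell makeup. Irf4 was most like Bank1 (r = 0.97), Blnk (0.97) and St6gal1 (0.97), of which the first are adaptors of B cell receptor signalling and the last is a sialyltransferase abundant in B cells. Mzb1 was most like transcripts that the array annotates as immunoglobulin lambda constant 2 (0.97) and constant 3 (0.96) and Cd79b (0.96). Prdm1 was most like Sh2d1a (0.94), Fasl (0.90) and Gzmb (0.90), the genes of an adaptor of T and NK cells, of Fas ligand and of granzyme B. Sdc1 was most like Abhd14b (0.97), Pex11g (0.97) and Cyp4v3 (0.97), the last a fatty acid hydroxylase of the cytochrome P450 family. Xbp1 was most like D830050J10Rik (0.92), Znhit1 (0.91) and Osgin1 (0.91), and Derl3 was most like Serf1 (0.86), Nme6 (0.86) and Mrps7 (0.84).

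Against list means per array, taken the same way, Mzb1 and Irf4 had r of 0.96 and 0.88 with B cell genes, Prdm1 0.91 with T cell genes and −0.11 with B cell genes, and Sdc1 0.88 with hepatocyte and 0.86 with epithelial markers. Xbp1 had r of 0.77 with monocyte markers and 0.19 with B cell genes. Among the members themselves Irf4 and Mzb1 were most alike (0.92), then Sdc1 and Derl3 (0.85), while Xbp1 and Prdm1 ran opposite ways (−0.61). Of the cell types that can make Prdm1, 7 of 10 T cell markers tested were lower and 0 higher in young mice and 5 of 6 NK cell markers were higher (median log2 difference 1.69), and 0 of either list passed in old mice by limma. Without the hepatocyte-high arrays 5 T cell markers were lower and 6 NK cell markers higher in young mice, and 1 T cell marker was higher in old mice. Without old irradiated mice 4 and 6, 3 of 6 NK cell markers were higher in old mice (median 1.39).

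**Figure D4:**
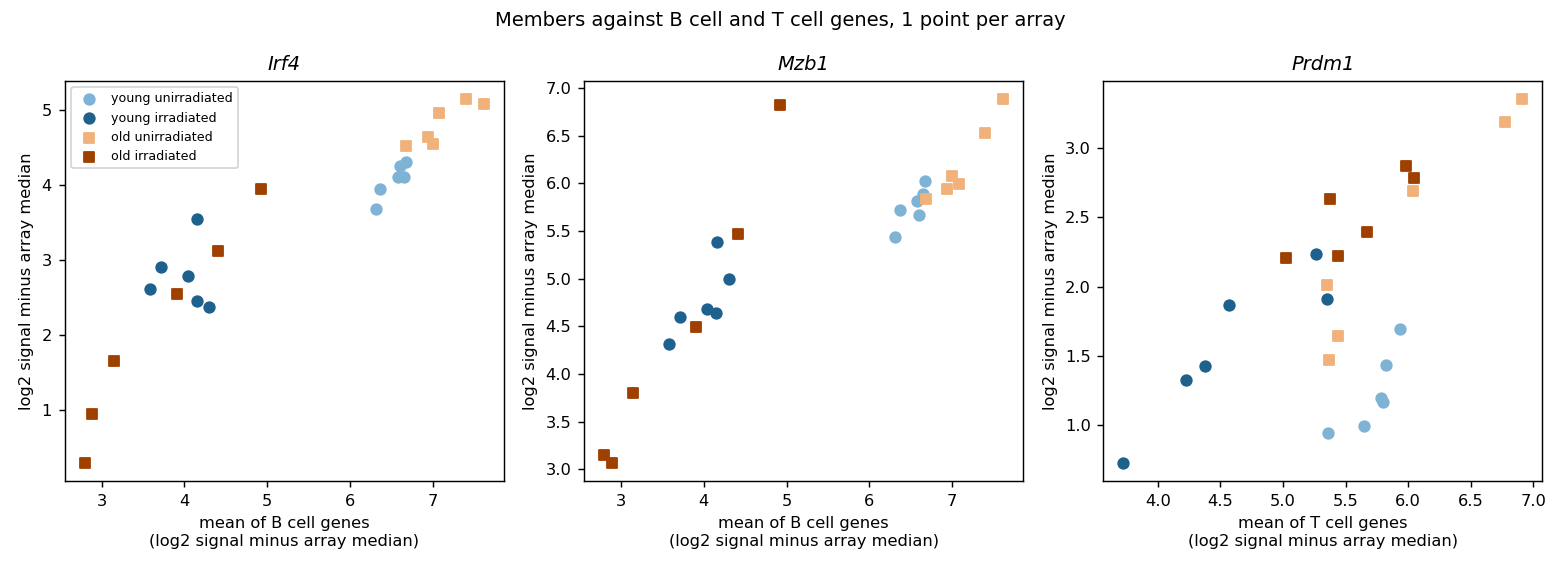
Log2 levels of Irf4 and Mzb1 against the mean log2 level of 19 B cell genes, and of Prdm1 against that of 10 T cell genes, in 24 arrays (log2 signal minus array median on all axes), 1 point per array, coloured by group. B cell means are 2.79 to 4.92 in irradiated and 6.31 to 7.62 in unirradiated mice; Irf4 is lower in every irradiated mouse than in every unirradiated mouse of its age, while Mzb1 in old irradiated mouse 3 (6.82) lies among the old unirradiated mice.

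Of 42 genes of the ER and secretion tested, many of them targets of Xbp1, 21 were higher and 4 lower in young mice (median log2 difference 0.68, all genes −0.20), and the others did not pass. Of all genes, 14.4% were higher and 21.4% lower. The higher ones included Hspa5, the ER chaperone BiP (1.15, adjusted p = 0.000483), Hsp90b1, the chaperone GRP94 (1.22, adjusted p = 0.0019), and Derl1, a relative of Derl3 (2.02, adjusted p = 7.21e-06), while Sec61g of the translocon did not pass (−0.33). The list mean was 4.96 to 5.15 in the 3 young irradiated mice with high hepatocyte markers, 4.58 to 4.70 in the other 3 and 4.21 to 4.51 in unirradiated mice. Without the former, 13 were higher and 4 lower (median 0.38). In old mice 1 of 42 was higher, Derl1 (1.73, adjusted p = 0.000538), and 5 were lower (median −0.33, all genes −0.25). Without mice 2, 3 and 5 the counts were 1 and 13, and without mice 4 and 6 they were 7 and 7.

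Of 12 transcription factors of B cell identity tested, several of which Prdm1 represses, 10 were lower in young and 9 in old mice and 0 were higher (medians −1.79 and −2.32), against 21.4% and 17.4% of all genes lower. Without the hepatocyte-high arrays 9 were lower in young mice, and 8 were lower and 1 higher in old mice. Pou2af1, the B cell coactivator OCA-B, had log2 differences of −1.97 in young and −3.58 in old mice, Irf8 −1.64 and −2.95 and Ets1 −1.95 and −2.11, all of which passed. Bcl6, the repressor that Prdm1 opposes in germinal centre cells, did not (−0.56 and −0.43).

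Among 9 ligands and receptors of B lineage survival, 1 was higher and 3 lower in young mice and 0 and 2 in old mice. Of all genes, 21.4% were lower in young and 17.4% in old mice, and counts among 9 genes are not read as a result. Without the hepatocyte-high arrays 1 was higher and 4 lower in young mice and 4 were lower in old mice (median −1.92). The shares of all genes lower were then 18.9% and 24.5%. Without old irradiated mice 4 and 6 it was 1 higher and 2 lower in old mice, against 11.9% and 22.8% of all genes. Tnfrsf13b (TACI), which shares its ligands with Tnfrsf17 and is made in B cells too, fell in young (−2.23, adjusted p = 9.23e-07) and in old mice (−3.05, adjusted p = 0.00216). Mcl1, the survival factor of plasma cells, had log2 differences of −0.25 and −0.47, and Il6ra, a subunit of the interleukin 6 receptor, 0.12 and −0.77, and Cd28 −0.55 and −0.24, and these did not pass.

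Of 10 other genes known from plasma cells, 1 was higher and 4 lower in young mice and 2 and 1 in old mice. Of all genes, 14.4% were higher and 21.4% lower in young mice, and 7.60% and 17.4% in old mice. Without the hepatocyte-high arrays 2 of the 10 were higher and 2 lower in young mice, and 2 and 1 in old mice. Without old irradiated mice 4 and 6 the counts in old mice were 2 and 2. Cd93, a surface protein of plasma cells and myeloid cells, rose at both ages (1.52, adjusted p = 3.45e-05, and 1.60, adjusted p = 0.00118). Fam46c, a poly(A) polymerase, fell in young mice (−1.31, adjusted p = 0.00883) and had −0.76 in old mice, and Cd38 fell in young mice (−1.28, adjusted p = 0.000582) and had −0.81 in old mice. Eaf2, an elongation factor partner, had 0.59 in young mice and rose in old mice (0.78, adjusted p = 0.0179).

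Immunoglobulin chain genes were taken by their gene name on the array, and 5 were tested. The immunoglobulin lambda constant transcripts most like Mzb1 carry other names there and are not among the 5. Of these 5, 0 were higher in either age by limma and 1 was lower in young mice, Igh-V3660 (−1.02, adjusted p = 0.013), which is named for its count. Jchain, which joins IgM and IgA into polymers and is made in antibody-secreting cells, had log2 levels of 3.11, 3.44 and 3.90 in young unirradiated, 2.43, 4.21 and 4.53 in young irradiated, 2.50, 4.64 and 5.83 in old unirradiated and 4.44, 5.72 and 6.96 in old irradiated mice. The groups overlapped at both ages, and its log2 differences of 0.29 (adjusted p = 0.569) and 1.20 did not pass. The variable region genes Igh-VJ558 (0.06 in young and 1.12 in old mice) and Igkv4-53 (−0.35 and 1.37) did not pass either. All 5 had a log2 difference above 0 in old mice (median 1.12). Without old irradiated mice 2, 3 and 5, 2 of the 5 were higher there (median 1.93), and without mice 4 and 6 it was 0 of 5 (median −0.06). Mice 2, 3 and 5 had the lowest mean levels of the immunoglobulin list in their group (2.18, 2.66 and 3.14). Mouse 1 had 3.42, and mice 4 and 6 had the highest (4.26 each). Each omission thus moves the median by selection, so that the 2 passes cannot show a rise. These variable region probes share sequence with other genes of their families, and which of them a probe read is uncertain.

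**Figure D5:**
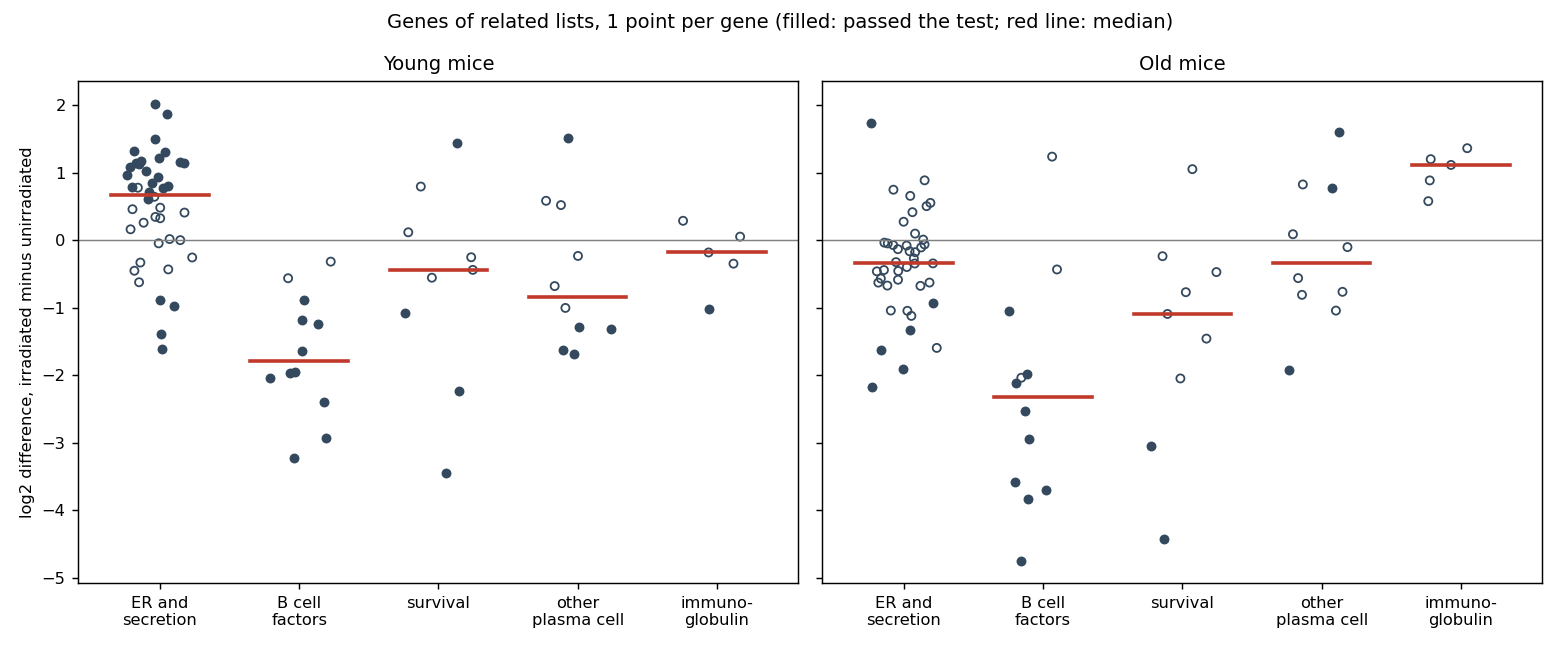
Log2 difference, irradiated minus unirradiated (vertical axis), of each tested gene of 5 lists (42 ER and secretion, 12 B cell factors, 9 survival, 10 other plasma cell and 5 immunoglobulin genes) in young and old mice; filled points passed the test and red lines are medians. ER and secretion genes have a median of 0.68 in young and −0.33 in old mice, and B cell factors have −1.79 and −2.32.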

How the data were processed

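Blood RNA of 24 mice was measured on 24 one-colour arrays, 4 to a slide. The intensity of each spot (processed signal: background-subtracted and detrended) was deposited by the authors as written by Agilent Feature Extraction 12.0.2, without normalisation between arrays. A second, normalised table of log2 values came from the authors (17190 rows, column medians 5.77 to 6.73) and served as an alternative only. Per the study's methods, its signals had been corrected for background, put on the log2 scale and normalised to the median.

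From the intensities, non-uniform spots were set to missing, and log2 signals were taken minus the median of each array over 43020 non-control spots. Probes were dropped where 25% or more of the arrays had a non-uniform spot or one not significantly above background (39429 to 24130), the brightest probe per gene was kept (18737 genes), and genes that departed at least 1.5-fold from their median in at least 20% of arrays were tested (17472). No spot of a member was saturated. The number of arrays limits the precision. Comparisons used limma 3.58.1 (lmFit and eBayes) in R 4.3.3 on the 12 arrays compared, or on 24 for the interaction. A gene passed at p under 0.005 and Benjamini-Hochberg adjusted p under 0.05, and the scripts were tested on simulated data. Single members were also tested by exact permutation over 924 splits. Replicate numbers did not pair the mice: the deviations of same-numbered mice correlated at −0.286 to 0.295 in young and −0.204 to 0.336 in old mice.

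The members and the gene lists were chosen with earlier results of these data known. The text names the 7 members, up to 4 genes of each list with the highest mean signal, and the 3 genes most like each member. Alternatives were other scalings and background corrections, filters, fits, and arrays left out.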

Additional observations from a re-analysis of the deposited data

Results flagged for a closer look

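Tnfrsf17, whose probe did not pass the filter on dim probes and so entered no comparison across genes, was well above background in 3 of 6 old irradiated mice and in 0 of the other 18 mice. The log2 levels of those 3 mice (replicates 1, 3 and 5) were 0.50, 0.64 and 0.70, and the highest unirradiated mouse, an old one, had −0.64. The exact permutation test of old irradiated against old unirradiated mice gave p = 0.0931 (two-sided, 6 against 6).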

How the results depend on the processing

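Of 927 values of single members under an alternative, 803 kept their direction and their side of the threshold, 38 lost and 31 gained a pass and 55 changed sign. Relative to B cell genes, 349 of 355 were kept. Leaving out arrays by their hepatocyte or monocyte markers was chosen after seeing the data. The causes of the changes below were not tested.

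Of the members tested in young mice, 3 of 6 passed on irradiation, 0 of 4 with normexp background correction and 1 in 1 fit of all 24 arrays, with 2 to 3 when 1 array was left out. In old mice 1 passed, 2 relative to the 75th percentile, 2 relative to the median of probes well above background on all arrays, 0 of 4 with normexp, 0 of 3 with a stricter filter on dim probes, 3 in 1 fit of all arrays, 3 without irradiated mice 2, 3 and 5 (also with young unirradiated mouse 5 left out), 2 without irradiated mice 4 and 6, and 1 to 2 without 1 array (2 without unirradiated 3, irradiated 3 or irradiated 4). For age without irradiation 3 passed, 0 of 5 with quantile normalisation, 0 of 4 with normexp, 1 with the deposited values and 2 to 3 without 1 array. For age in irradiated mice 0 passed, 1 in 1 fit of all arrays, 1 with a random block for slide, 2 with the omission of old irradiated mice 2, 3 and 5, and 1 with that of mice 4 and 6. With these 2 omissions 10.6% and 28.5% of all genes passed. The interaction had 0, 2 without old irradiated mice 2, 3 and 5 or all 6 hepatocyte-high arrays (also without young unirradiated 5), and 0 to 1 without 1 array (1 without old irradiated 3). It passed for 34.2% of all genes without old irradiated mice 2, 3 and 5 and for 20.7% without all 6 hepatocyte-high arrays. Relative to B cell genes, 3 of 3 passed in old mice under the stricter filter, and 5 to 6 in young and 5 in old mice without 1 array.

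Signs turned for values that had not passed. With irradiation in young mice, Sdc1 was 0.020 on the scale of bright probes, 0.67 with normexp, 0.24 with slide as a block and −0.57 to 0.71 without 1 array, and Derl3 was −0.39 without the hepatocyte-high arrays, with or without young unirradiated 5. In old mice, Xbp1 was 0.18 relative to the 75th percentile, 0.22 on the scale of bright probes, 0.47 with normexp, 0.18 without irradiated 4 and 6 and −0.25 to 0.012 without 1 array. Sdc1 was −1.99 without irradiated 2, 3 and 5 and −0.23 to 0.84 without 1 array, and Prdm1 was −0.028 without irradiated 4 and 6 and −0.058 to 0.32 without 1 array. For age without irradiation, Mzb1 was −0.071 relative to the 75th percentile, −0.24 with quantile normalisation, −0.14 on the scale of bright probes and −0.31 with the deposited values, and Derl3 was −0.24 to 0.21 without 1 array. For age in irradiated mice, Sdc1 was 0.27 with the deposited values, 0.0076 without the hepatocyte-high arrays, 1.04 without old irradiated 4 and 6 and −0.91 to 0.43 without 1 array, and without 4 and 6 Irf4 was 0.033 and Mzb1 0.37. In the interaction, Prdm1 was 0.076, 0.099 and 0.20 on the 75th percentile, bright-probe and deposited scales, and Sdc1 was −1.98 without old irradiated 2, 3 and 5 and −0.48 to 0.85 without 1 array. Relative to B cell genes, Sdc1 in young mice was −0.059 without the hepatocyte-high arrays.

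Replicate numbers are shared between groups but did not pair the mice. With the replicate block 2 members passed in young mice, 3 in old mice, 3 for age without irradiation, 0 for age in irradiated mice and 0 for the interaction. Old unirradiated mice 1 and 6 were more alike than other pairs, and with them counted as 1 sample Prdm1 lost its pass for age (0.98) and no other member changed its call. Scaling moved the split of all calls: 30.4% were higher in old mice on irradiation against 36.9 to 54.4% on the other 4 scales, 75.7% against 17.2 to 42.5% for age without irradiation, and 70% against 15.9 to 42.9% for age in irradiated mice. Tnfrsf17, Derl3 and Sdc1 lay near background in part of the arrays, where their levels are less certain.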
